A study of Mus musculus with 12 samples.

Results

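The genes described here are 8 epithelial claudins (Cldn2, Cldn3, Cldn4, Cldn7, Cldn8, Cldn12, Cldn15 and Cldn23) and occludin (Ocln), taken by gene symbol from the count table of mouse ileum. They are 9 of the 35275 genes in that table, and each symbol matched a single identifier. Total RNA of the ileum was sequenced from C57BL/6 pups on postnatal day 14. Stressed pups were born to 3 dams confined daily for 2 h in a 50 cc tube between gestational days 7 and 19, and control pups to 3 dams left undisturbed. A male and a female pup per dam were sampled, giving control males, control females, stressed males and stressed females with 3 libraries each. The pups themselves were not restrained. Library totals ran from 16423523 to 22975526 counts. The comparison asks whether restraint of the pregnant dam is followed by other levels of these junction genes in the offspring's ileum.

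Tight junctions close the gap between neighbouring epithelial cells near the lumen. Claudins are membrane-spanning proteins whose strands form that closure, and the set of claudins in a cell decides which ions and how much water can pass between cells. Claudin-2 and claudin-15 form channels for small cations, and claudin-12 has been tied to calcium passage. Claudin-3, claudin-4, claudin-7, claudin-8 and claudin-23 are described mainly as sealing members, and occludin is a junction protein of a separate family that stabilises the strands. In the intestine the claudin set differs between duodenum, jejunum, ileum and colon and shifts between birth and weaning.

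Both pups of control dam 3 stood apart from the other 10 libraries. The summed level of 11 genes typical of the upper small intestine reached 16962 CPM (counts normalised for library size, with TMM factors) in the male and 8777 CPM in the female of this litter, and stayed between 1893 and 3913 CPM elsewhere. All 11 were detected. Gata4, a regulator of jejunal identity, stood at 135 CPM and 50.98 CPM in these pups and did not pass 4.06 CPM elsewhere. The summed level of 15 general epithelial genes was also highest in them, 15277 CPM and 13445 CPM against 9850.2 to 12871 CPM, and none of the 15 was at 0. B cell genes summed to 3.97 CPM and 16.1 CPM in these pups against 20.7 to 63.9 CPM elsewhere. Their summed levels of genes of enterocytes after weaning were 18988 CPM and 16372.5 CPM against 2936 to 7376 CPM elsewhere, led by Apoa1. Genes of suckling ileal enterocytes summed to 9218 CPM and 9916 CPM against 4745 to 6302 CPM. Ctsl led this list, at 3481 CPM in the female. In the male Ctsl stood at 1576 CPM, inside the 594 to 1583 CPM elsewhere. The median log2 deviation of the suckling genes was -0.50 in the male and 0.23 in the female, against -0.31 to 0.21 elsewhere. The sum of this list was thus high in the male while its median gene was low. Of 8 exocrine pancreas genes 5 had no count in any library, and the sum of the list was 61.6 CPM and 46.1 CPM in these pups against 6.15 to 20.5 CPM elsewhere, mostly from Clps. The colon markers Hoxb13 and Ly6g6c had no count, while the colon list summed to 144 CPM and 169.6 CPM against 47.1 to 128 CPM, with Slc26a3 at 104 CPM and 119.9 CPM against at most 68.3 CPM. The sums of Paneth cell, crypt, enteroendocrine and tuft cell, endothelial and macrophage genes were highest in these pups as well. Results are therefore given with and without this litter where it matters. In whole tissue, fewer cells of a type and less RNA per cell cannot be told apart.

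Per unit of gene length, Cldn7 was the most abundant of the 9 genes and Cldn23 the least. Median FPKM (counts normalised for gene length and library size) over the 12 libraries was 424 for Cldn7, 161 for Cldn2, 143 for Cldn4, 81.8 for Cldn3, 60.3 for Cldn8, 49.2 for Ocln, 26.8 for Cldn15, 14.4 for Cldn12 and 13.5 for Cldn23. Cldn7 exceeded Cldn2 in 12 of 12 libraries, by a mean log2 ratio of 1.39 ± 0.22 (SD, n = 12). Cldn3 exceeded Cldn8 in 12 of 12 as well. Cldn2 exceeded Cldn4 in 9 of 12, with a mean log2 ratio of 0.13 ± 0.47 (SD, n = 12), so that these neighbours did not differ beyond their spread. The same held for Cldn8 and Ocln, ordered this way in 7 of 12 libraries, and for Cldn12 and Cldn23, in 9 of 12. Cldn4 over Cldn3, Ocln over Cldn15 and Cldn15 over Cldn12 each held in 11 of 12 libraries. The exception was control male 3 for the pairs Cldn4 and Cldn3 and Ocln and Cldn15, and control male 1 for Cldn15 and Cldn12. Cldn7 alone made up 37.3% to 48.7% of the summed FPKM of the 9 genes in a library.

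**Figure D1:**
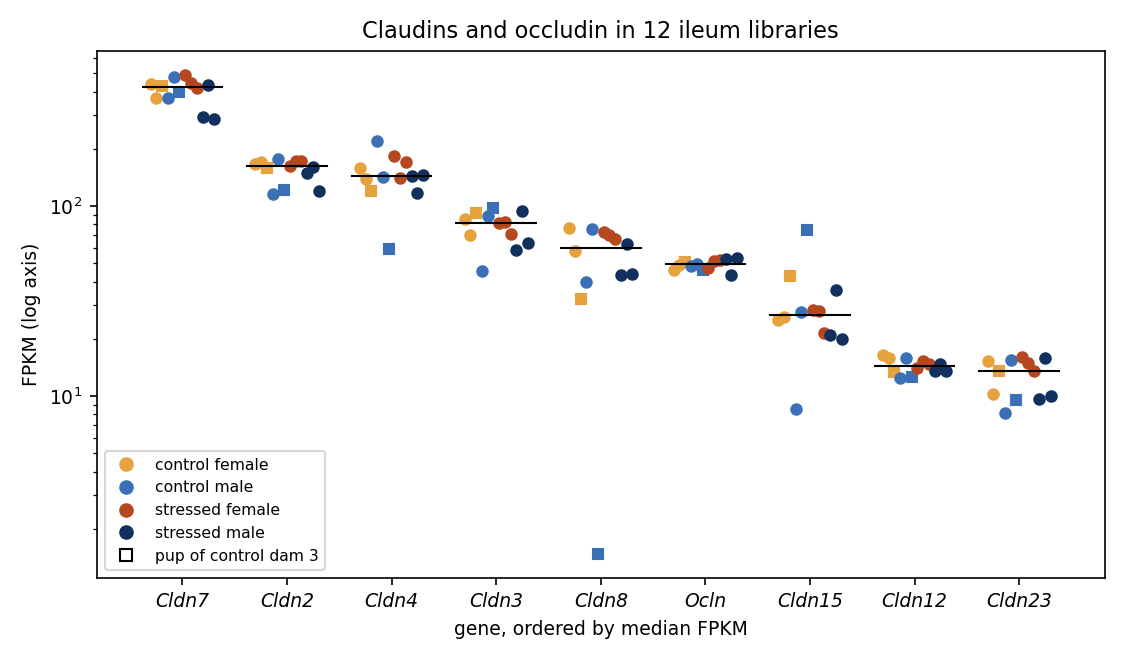
FPKM on a log axis for each gene in 12 ileum libraries, with 1 symbol per library, coloured by group, squares for the pups of control dam 3 and a black line at the median. Cldn7 lies highest with a median of 424 FPKM, and the points that leave their row are Cldn8, Cldn4 and Cldn15 in control male 3 and Cldn15 in control male 1.

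The genes differed widely in how much they varied between libraries. Cldn8 had an SD of 1.41 in log2 CPM over the 12 libraries and was more variable than 99.7% of the 14520 genes with a mean of at least 1 CPM. Cldn15 followed with 0.76, above 97.9% of genes. At the other end Cldn12 had an SD of 0.096 and Ocln of 0.12, above only 2.97% and 8.52% of genes. The median gene had 0.25. Without control dam 3 the SD of Cldn8 dropped to 0.32 (above 76.2% of genes) and that of Cldn4 from 0.40 to 0.25, whereas Cldn15 kept 0.52 (above 95.5%).

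The promoters of Cldn15, Cldn3 and Cldn4 are shown because these 3 genes, all on chromosome 5, varied together or in opposite directions across the libraries. The Cldn3 and Cldn4 genes lie 39280 bases apart. RefSeq (GRCm38.p6) gave a promoter for 7 of the 9 genes and none was found for Cldn8 and Cldn23. The 200 bases printed run from 250 to 51 bases before the start, 5′ to 3′ on the gene's strand, with AP-1 motifs (TGANTCA) and GC boxes (GGGCGG) in capitals, both strands searched. They cover chr5:136967619-136967818 (plus strand) for Cldn15, chr5:134985964-134986163 (plus) for Cldn3 and chr5:134946985-134947184 (minus) for Cldn4. The RefSeq start used for Cldn15 lies inside the span of its gene in the count table.
Cldn15: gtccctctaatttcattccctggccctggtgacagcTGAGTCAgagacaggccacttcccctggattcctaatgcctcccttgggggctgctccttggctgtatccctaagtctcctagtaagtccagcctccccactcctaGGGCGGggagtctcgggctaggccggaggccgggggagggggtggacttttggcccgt
Cldn3: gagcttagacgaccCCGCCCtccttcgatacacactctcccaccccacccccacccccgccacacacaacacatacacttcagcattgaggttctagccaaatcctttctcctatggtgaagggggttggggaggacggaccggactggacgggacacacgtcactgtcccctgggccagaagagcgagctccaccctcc
Cldn4: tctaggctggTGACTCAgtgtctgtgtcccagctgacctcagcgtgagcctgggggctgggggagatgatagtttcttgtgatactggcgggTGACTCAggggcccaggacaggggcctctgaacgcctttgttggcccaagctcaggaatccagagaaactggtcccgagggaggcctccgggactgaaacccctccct

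Cldn4 held 2 AP-1 motifs, at bases 11 to 17 and 93 to 99 of its window, Cldn15 held 1 at bases 37 to 43, and Cldn3 held none. GC boxes stood at bases 143 to 148 in Cldn15 and 15 to 20 in Cldn3, where the capitals are the reverse strand. Of the 7 members with a promoter, Cldn12 and Ocln also held a GC box. None besides Cldn4 and Cldn15 held an AP-1 motif, and Cldn2 and Cldn7 held neither. These motifs were chosen after the sequences were seen, and they do not overlap. Of 32851 RefSeq promoter windows of the same length 5.57% held an AP-1 motif and 24.6% a GC box. Motifs of GATA factors (AGATAA, in 8.42% of windows), CDX (TTTATNG, 7.65%) and HNF4 (CAAAGTCCA, 0.295%) were not found in the windows of the members, which says only that these letters are absent there.

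No member passed the threshold (adjusted p below 0.05, edgeR quasi-likelihood F test with Benjamini-Hochberg adjustment) in any comparison of stressed with control pups. In males this was 0 of 9, against 0% of 16102 genes, and 0 of 9 at an unadjusted p below 0.05, against 6.38% of genes. In females it was 0 of 9, against 0% of 16102 genes, and 0 of 9 unadjusted, against 0.298%. Over whole litters, where the counts of littermates were summed and 3 stressed were set against 3 control dams, it was 0 of 9, against 0% of 16749 genes, and 0 of 9 unadjusted, against 1.36%. The difference between the male and female effects gave 0 of 9, against 0% of 16102 genes, and 0 of 9 unadjusted, against 2.15%. DESeq2 also gave 0 of 9 in each of these, and at an unadjusted p below 0.05 it gave 1 in males, Cldn7 (adjusted p = 0.689), and 0 in the others. Over all genes tested, DESeq2 gave an unadjusted p below 0.05 for 7.06% in males and 0.304% in females. The share was 1.37% between litters and 2.45% for the difference of the effects. For none of the 9 genes were the stressed and control groups free of overlap in CPM, in males, in females or between litters, where 5.44%, 5.26% and 5.11% of 14520 genes were. The median log2 fold change of the 9 was -0.00 in males, -0.00 in females and -0.01 between litters, beside 0.01, -0.00 and 0.00 over all genes tested. Members with a fold change above 0 numbered 4 in males, 4 in females and 3 between litters. Without control dam 3 these numbers were 5, 8 and 4, with a median of 0.07 in females. With all libraries scaled to the 15 epithelial genes they were 6, 6 and 8. That scaling raised all genes alike, to medians of 0.14, 0.07 and 0.13, beside 0.16, 0.08 and 0.13 for the members.

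**Figure D2:**
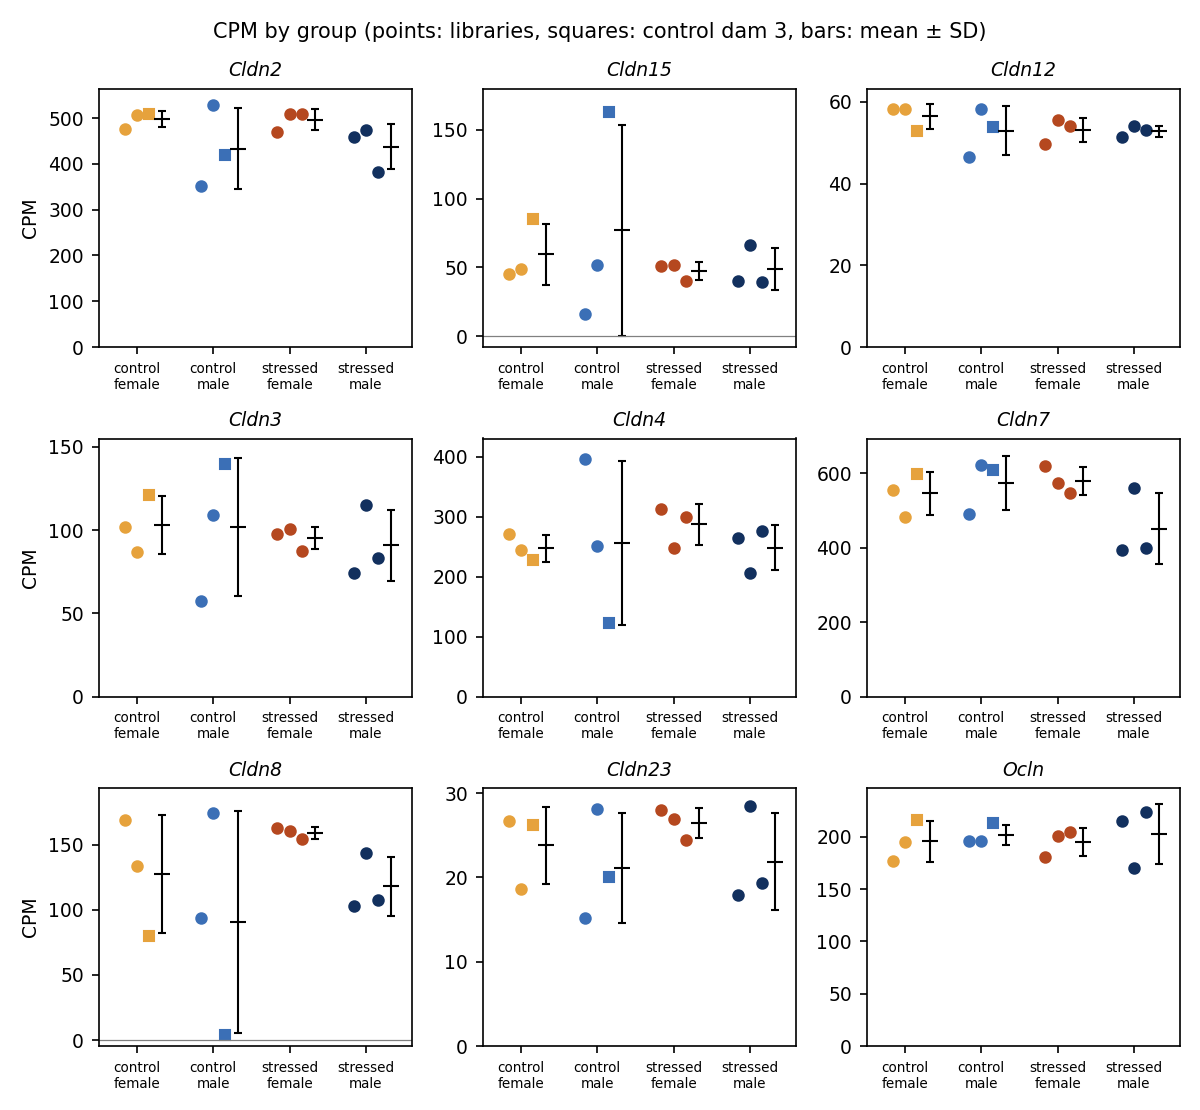
CPM of each gene by group, on linear axes that include 0, with points for libraries, squares for the pups of control dam 3 and bars for the mean ± SD (n = 3). The groups overlap in all 9 panels, and the widest bars belong to control males for Cldn15, Cldn4, Cldn3 and Cldn8.

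Among the channel formers, Cldn2 (ENSMUSG00000047230, chrX:139800828-139811386) held similar levels in all groups. Its CPM was 477, 507 and 508 in control females, 352, 527 and 420 in control males, 470, 509 and 510 in stressed females and 458, 474 and 381 in stressed males, in the order of the dams. The lowest values were those of control male 1 and stressed male 3, and the groups overlapped. The log2 fold change was 0.01 ± 0.16 (SE) in males and -0.00 ± 0.16 in females (edgeR, adjusted p = 0.989 and 1).

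Cldn15 (ENSMUSG00000001739, chr5:136966616-136975858), the other sodium channel claudin of the small intestine, had the widest range apart from Cldn8. Its CPM was 45.3, 48.5 and 85.3 in control females, 16.2, 51.4 and 163 in control males, 51.2, 51.6 and 39.9 in stressed females and 40.4, 66.6 and 39.4 in stressed males. Control males held both the lowest and the highest library, and the highest libraries of each sex's controls were the pups of control dam 3. The log2 fold change was -0.65 ± 0.60 (SE) in males, -0.33 ± 0.59 in females and -0.48 ± 0.43 between litters, with edgeR adjusted p = 0.826, 1 and 1.00. Without the pups of control dam 3 it became 0.53 ± 0.40 in males, 0.02 ± 0.40 in females and 0.21 ± 0.22 between litters, so that in each case the sign of the value depended on this litter. By litter, mean CPM was 30.8, 50.0 and 124 for control dams and 45.8, 59.1 and 39.7 for stressed dams. Without control male 1 alone the fold change was -1.13 in males (edgeR, adjusted p = 0.335), and without control litter 1 it was -0.80 between litters. Cldn12 (ENSMUSG00000046798, chr5:5505015-5514958), the claudin tied to calcium passage, lay within 46.4 to 58.3 CPM in all 12 libraries. Its log2 fold change was -0.00 ± 0.11 in males and -0.09 ± 0.11 in females.

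Among the sealing claudins, Cldn7 (ENSMUSG00000018569, chr11:69964779-69967885), which sits along much of the lateral membrane of enterocytes, had the smallest p in males. Its CPM was 556, 484 and 598 in control females, 492, 622 and 609 in control males, 621, 574 and 546 in stressed females and 394, 561 and 399 in stressed males. Stressed males 1 and 3 were the lowest of all 12 libraries, and stressed male 2 lay inside the control range. The log2 fold change was -0.35 ± 0.17 (SE) in males and 0.09 ± 0.17 in females, with edgeR adjusted p = 0.752 and 1. The difference of the effects was -0.43 ± 0.24 (edgeR, adjusted p = 0.999). The value in males was -0.31 ± 0.19 without control dam 3, and leaving out 1 library in turn kept it between -0.56 and -0.27. The most negative of these, without stressed male 2, had an edgeR adjusted p of 0.11. In that fit 20.7% of all genes tested had an unadjusted p below 0.05. Stressed males 1 and 3 were also the libraries with the lowest share of mitochondrially encoded reads, 2.18% and 1.16% against 3.01% to 4.59% in the other libraries, and the highest shares of Yam1, a noncoding RNA, at 1.39% and 4.13%. Their summed levels of the 15 epithelial genes were 10997 and 10149 CPM. Only control male 1 was lower, at 9850.2 CPM, and the remaining libraries lay between 11084 and 15277 CPM. The part of this level in the Cldn7 value was not tested. Without these 2 libraries and control male 1, which had 1.00% of Yam1, the value in males was -0.13 ± 0.18 (SE). That fit leaves 1 stressed male, which is assumed to vary like the other groups.

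Cldn8 (ENSMUSG00000050520, chr16:88560828-88563183), a sealing claudin of distal gut and kidney tubules, was nearly missing in 1 library. Its CPM was 169, 133 and 79.9 in control females, 93.9, 174 and 3.97 in control males, 163, 161 and 154 in stressed females and 103, 144 and 108 in stressed males. Control male 3 held 61 counts, whereas the other 11 libraries held 1697 to 4120. Its littermate, control female 3, was the lowest female. The log2 fold change was 0.38 ± 0.78 (SE) in males and 0.32 ± 0.78 in females (edgeR, adjusted p = 0.929 and 1). Without control dam 3 it was -0.19 ± 0.25 and 0.07 ± 0.25, and between litters it went from 0.31 ± 0.38 to -0.06 ± 0.11. Other single libraries moved it as well, to 1.25 in males without control male 2, to 0.55 in females without control female 1 and to 0.61 between litters without control litter 2. By litter, mean CPM was 132, 154 and 41.9 for control dams and 133, 152 and 131 for stressed dams. The stressed females were close together, with 159 ± 4.49 CPM (SD, n = 3), against 128 ± 45.0 in control females.

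Cldn4 (ENSMUSG00000047501, chr5:134945126-134946934), a sealing claudin, was 272, 244 and 227 CPM in control females, 396, 252 and 122 in control males, 314, 248 and 300 in stressed females and 264, 206 and 276 in stressed males. Control males again held both extremes, with control male 1 highest and control male 3 lowest. The log2 fold change was -0.05 ± 0.32 (SE) in males and 0.21 ± 0.32 in females, and without control dam 3 it was -0.38 ± 0.21 in males and 0.15 ± 0.22 in females. Without control male 1 it was 0.41 ± 0.27 in males, so that its sign depended on which of these control males was left out. Cldn3 (ENSMUSG00000070473, chr5:134986214-134987472) was 102, 86.6 and 121 CPM in control females, 57.6, 109 and 139 in control males, 97.5, 100.4 and 87.6 in stressed females and 74.2, 115 and 83.3 in stressed males. The control male that was highest in Cldn4 was lowest in Cldn3, and the lowest in Cldn4 was highest in Cldn3. The log2 fold change was -0.17 ± 0.27 in males and -0.12 ± 0.27 in females, and 0.12 ± 0.26 and 0.01 ± 0.26 without control dam 3. In males it was -0.45 without control male 1. Cldn3 overlaps the antisense gene Wbscr25, which held 0 to 8 counts per library, and the sources used here do not say whether the counting used strand.

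Cldn23 (ENSMUSG00000055976, chr8:35824709-35826559), described as a tightening claudin of the mucosa, ranged from 15.2 to 28.5 CPM, with its lowest library in control male 1 and its highest in stressed male 2. Its log2 fold change was 0.05 ± 0.24 (SE) in males and 0.15 ± 0.24 in females. With 1 library left out it ran in males from -0.20, without stressed male 2, to 0.29, without control male 2, and it was -0.02 in females without control female 2. Occludin (Ocln, ENSMUSG00000021638, chr13:100496507-100552718) ranged from 170.4 CPM in stressed male 2 to 224 CPM in stressed male 3. Its log2 fold change was 0.01 ± 0.14 in males, -0.00 ± 0.14 in females and -0.01 ± 0.10 between litters.

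**Figure D3:**
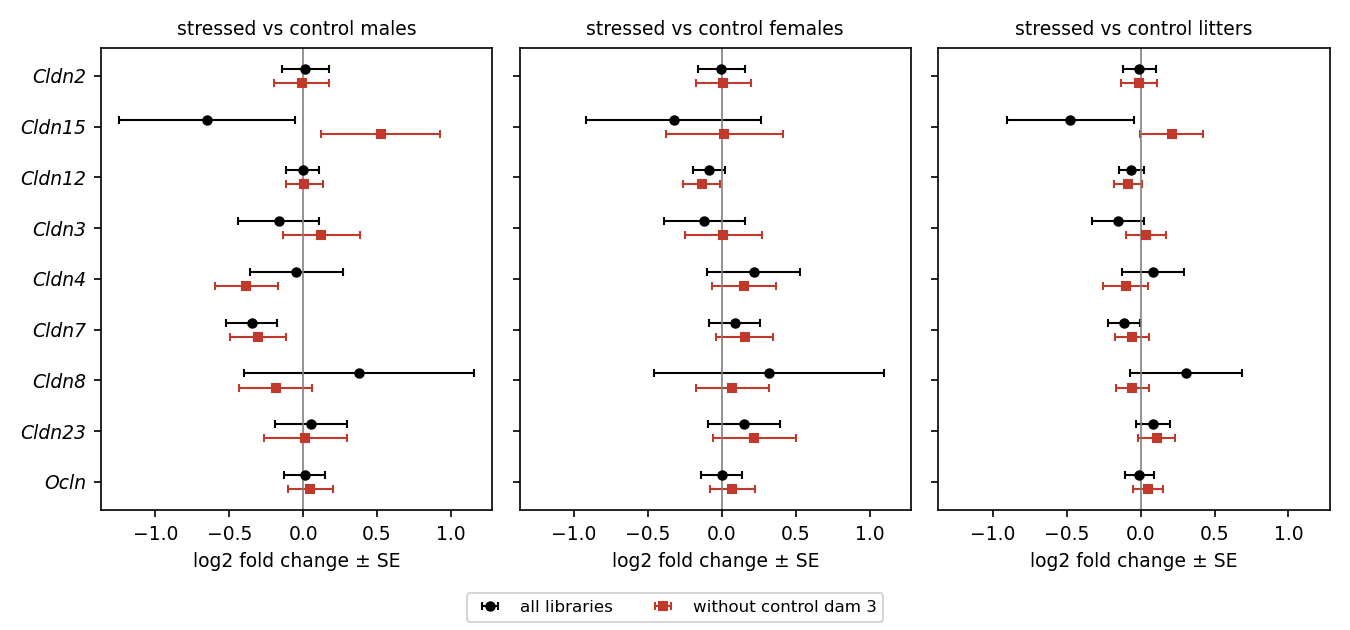
Log2 fold change ± SE from edgeR for stressed against control males, females and litters, with all libraries (black) and without both pups of control dam 3 (red). Cldn15 moves from -0.65 to 0.53 in males and Cldn8 from 0.38 to -0.19, while Cldn2, Cldn12 and Ocln stay near 0 in each panel.

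Cldn15, Cldn3 and Cldn8 lay outside the range of the other 10 libraries in both pups of control dam 3. Cldn4 did so only in the male. In control female 3 it stood at 227 CPM, inside the 206 to 396 CPM of the other 10. Control male 3, with the highest sum of 16962 CPM, had the highest Cldn15 and Cldn3 and the lowest Cldn4 and Cldn8. Control female 3, second in the sum with 8777 CPM, was second in Cldn15 and Cldn3 and second lowest in Cldn8. Control male 1, with a sum of 2264 CPM, had the lowest Cldn15 and Cldn3 and the highest Cldn4. Stressed males 1 and 3, with the lowest sums of 1893 and 1927 CPM, did not reach the extremes of control male 1. The order by sum was not that of the median gene. By the median log2 deviation of these 11 upper small intestine genes, control male 1 was the lowest library at -0.46. Stressed males 1 and 3 stood at -0.33 and -0.16. Control male 1 also held the lowest sums of Paneth cell genes, 354 CPM against 728 to 4346 CPM, and of goblet cell genes, 905 CPM against 2455 to 4615 CPM. Its sum of crypt and cell cycle genes was lowest too, 426 CPM against 823 to 1421 CPM, as was that of the 15 epithelial genes at 9850.2 CPM. Its sum of smooth muscle genes was the highest, 10539 CPM against 3703 to 7148 CPM elsewhere, and so was that of enteric neuron and glia genes, at 157 CPM. The enteroendocrine and tuft cell, macrophage, mesothelium, pancreas and colon sums were lowest in this library. The part of these cell type levels in the claudin values was not tested.

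**Figure D4:**
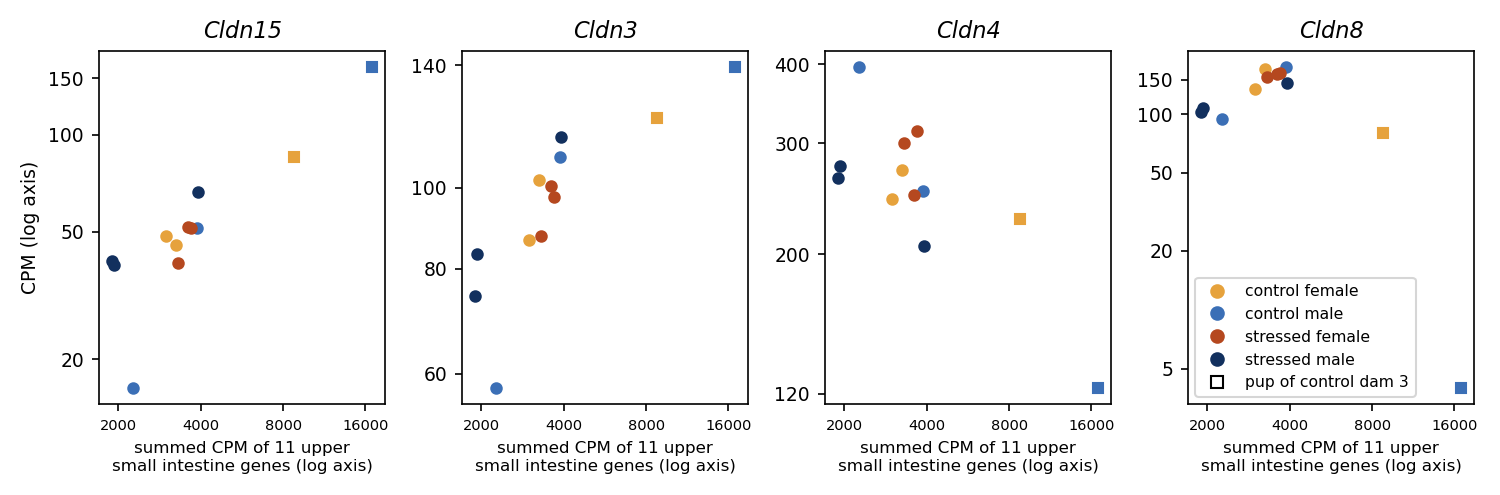
CPM of 4 claudins (log axis) against the summed CPM of 11 upper small intestine genes (log axis) in each of 12 libraries, with squares for the pups of control dam 3. Control male 3 at 16962 CPM lies at an extreme of every panel, highest for Cldn15 and Cldn3 and lowest for Cldn4 and Cldn8.

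FPKM ratios between pairs of members are given as a description. The FPKM ratio of Cldn4 to Cldn15 ran from 0.789 in control male 3 to 25.7 in control male 1, with a median of 5.80. The other 10 libraries lay between 2.80 and 7.90. The ratio of Cldn2 to Cldn15 ran from 1.61 to 13.6 between the same libraries, and that of Cldn3 to Cldn4 from 1.64 to 0.209. Cldn7 to Ocln ranged only from 5.40 to 10.5, with stressed males 3 and 1 lowest at 5.40 and 5.57. Across the 12 libraries, which share litters and groups, Pearson's r of log2(CPM + 1) was 0.93 between Cldn15 and Cldn3, -0.93 between Cldn15 and Cldn4 and -0.81 between Cldn3 and Cldn4. Over the 10 libraries without control dam 3 these were 0.92, -0.87 and -0.76. Cldn8 and Cldn3 had r = -0.41 over 12 and 0.86 over 10 libraries, so that this sign rested on control dam 3.

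Against the mean log2 CPM of the 15 epithelial genes, the spread of some members narrowed and that of others did not. Cldn3 had an SD of 0.17 on this scale and 0.34 in log2 CPM, and Cldn15 had 0.56 and 0.76. Cldn4 widened from 0.40 to 0.60 and Ocln from 0.12 to 0.23. Cldn15 was still lowest in control male 1, at -4.59, and highest in control male 3, at -2.17, around a median of -3.45. Cldn3 was no longer extreme in control dam 3, at -2.39 in the male and -2.38 in the female, within -2.83 to -2.27. Cldn2, Cldn4, Cldn8, Cldn12, Cldn23 and Ocln were all lowest in control male 3 on this scale. That library had the highest mean of the 15 epithelial genes. Scaling all libraries to these genes shifted the median log2 fold change of all genes to 0.14 in males, 0.07 in females and 0.13 between litters, and no member passed the threshold. On that scale Cldn7 stood at -0.20 ± 0.20 (SE), Cldn15 at -0.28 ± 0.44 and Cldn3 at 0.07 ± 0.20 in males. Relative to the median gene these were -0.34, -0.42 and -0.07.

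Between the sexes, 0 of 9 members passed the threshold in edgeR, against 0.0497% of 16102 genes, and 0 of 9 had an unadjusted p below 0.05, against 12% of genes. DESeq2 gave 0 of 9 on both counts, against 18 of 16102 genes past the threshold and 13.9% with an unadjusted p below 0.05. In no member did the 6 males lie apart from the 6 females, which 0.248% of 14520 genes did. The log2 difference (male minus female) was -0.46 ± 0.55 (SE) for Cldn8, -0.19 ± 0.11 for Cldn2, -0.23 ± 0.17 for Cldn23, -0.14 ± 0.12 for Cldn7 and 0.20 ± 0.42 for Cldn15. The male was below its sister in Cldn8 in 5 of 6 litters, by a median of -0.59, and in Cldn2 in 5 of 6 litters, by a median of -0.19. Control dam 2 was the exception for both genes. With the litter as a block, Cldn8 gave -0.91 ± 0.49 and Cldn15 -0.06 ± 0.27. Without control dam 3 Cldn8 stood at -0.30 ± 0.18 and Cldn15 at -0.21 ± 0.28.

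The genes whose log2(CPM + 1) followed each member most closely over the 12 libraries are named by Pearson's r, which carries no test here because the libraries share litters. For Cldn8 they were Cpne8 (0.99), Rtn4 (0.98) and Ampd3 (0.98), and for Cldn15 Ddc (0.98), Trim31 (0.98) and Cyp2j9 (0.98). For Cldn3 they were Pdss1 (0.98), Acp6 (0.98) and Uap1 (0.97), and for Cldn4 Mreg (0.95), Phldb3 (0.94) and Ube2e2 (0.93). For Cldn7 they were Prr15l (0.96), Aprt (0.96) and Rer1 (0.96), and for Cldn2 Pdia6 (0.93), Ergic1 (0.93) and Nhlrc1 (0.92). For Cldn23 they were Mllt10 (0.97), Uba2 (0.97) and Mettl15 (0.97), for Cldn12 Gstcd (0.90), Dusp19 (0.87) and Taf2 (0.86), and for Ocln Cdkn2aipnl (0.91), Usp3 (0.89) and Zcchc6 (0.89). Over the 10 libraries without control dam 3 the nearest genes of Cldn8 became Rad1 (0.99), Ndc80 (0.98) and D6Wsu163e (0.98). Those of Cldn4 became Arhgef4 (0.96), Eapp (0.92) and Prune (0.91). Ddc stayed among the 3 nearest of Cldn15 (0.98), Uap1 among those of Cldn3 (0.99), Mllt10 and Mettl15 among those of Cldn23 (both 0.98) and Usp3 among those of Ocln (0.95).

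The rest of the junction gave 0 called genes in edgeR in each comparison. The counts of these lists at an unadjusted p below 0.05 in males stand beside 6.38% of all 16102 genes tested, and beside 5.82% of 16275 genes without control dam 3. The other claudins numbered 22 rows, of which 8 were abundant enough to test, and Cldn16, Cldn18, Cldn24, Cldn34a, Cldn34b1 and Cldn34d had no count in any library. A row labelled Cldn25, whose identifier GENCODE M21 gives to the claudin domain gene Cldnd1, was the most abundant of them with a median of 31.0 FPKM. In males 2 of the 8 had an unadjusted p below 0.05: Cldn5, the claudin of blood vessels (log2 fold change -0.59 ± 0.19, SE, edgeR adjusted p = 0.752), and Cldn1 (1.31 ± 0.52, adjusted p = 0.752), a sealing claudin with a median of 1.53 CPM. There were again 2 of 8 without control dam 3, with Cldn5 at -0.57 and Cldn1 at 1.76. Summed endothelial genes lay at 318 to 374 CPM in stressed males and 383 to 465.9 CPM in control males. None of these genes was at 0, and the list includes Cldn5 itself and Esam. Of single genes, 5.44% of 14520 were free of overlap between these groups. The part of the endothelial level in the Cldn5 value was not tested. Of 14 other membrane proteins of the tight junction 3 had an unadjusted p below 0.05 in males, Igsf5 (-0.39 ± 0.16), Esam (-0.48 ± 0.20) and F11r, the last named after its value was seen. This count was 1 of 14 without control dam 3, and the gene was neither Igsf5 nor Esam. Those stood at -0.30 and -0.41 (edgeR, unadjusted p = 0.062 and 0.070). The list median was 0.10 in males, beside 0.01 over all genes.

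Among 24 tested plaque genes, which link the strands to the cytoskeleton, none had an unadjusted p below 0.05 in males, and the smallest belonged to Tjap1 (-0.33 ± 0.16) and Tiam1 (0.31 ± 0.22). The count was 1 of 24 without control dam 3, with Tiam1 at 0.57 and Tjap1 at -0.21. The plaque list had 18 genes above 0 and 6 below in males, 3 above and 21 below in females, and 13 and 11 between litters, with medians of 0.07, -0.06 and 0.00. Of 16 adherens junction and desmosome genes 1 had an unadjusted p below 0.05 in males, Ctnnd1 (p120 catenin, -0.29 ± 0.11), followed by Pkp2 (0.27 ± 0.16), and without control dam 3 it was again 1 of 16, with Ctnnd1 at -0.29 and Pkp2 at 0.38. Of 33 claudin partners and regulators 4 did, Gata4 (-5.33 ± 2.07), Grhl2 (0.42 ± 0.17), Wnk1 and Tnfrsf1a, the last pair named after their values were seen. Leaving out control dam 3 gave 0 of 33, with Gata4 at 0.85 and Grhl2 at 0.35. Of 11 tested ion transport genes 1 did, Slc5a1, the sodium and glucose transporter (-1.25 ± 0.57, and -0.04 without control dam 3), followed by Slc34a2, a phosphate transporter (-0.78 ± 0.38, and -0.50 without control dam 3). Without that litter 0 of 11 did. Every gene named from these lists in males had an edgeR adjusted p of 0.752 to 0.777. Between litters the smallest p among the other claudins were those of Cldn5 (-0.28 ± 0.11) and Cldn1 (0.68 ± 0.32), and among the other membrane proteins those of Igsf5 (-0.30 ± 0.12) and F11r (-0.18 ± 0.10), all with an adjusted p of 1.00. With control dam 3 left out these were -0.26 for Cldn5, 0.71 for Cldn1, -0.16 for Igsf5 and -0.10 for F11r.

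In the authors' deposited table no member passed an adjusted p of 0.05 in stressed against control males, females or all pups, where 0% of genes did. Its log2 fold changes of the members lay between -0.305 and 0.0534 in males and between -0.169 and 0.164 in females. The authors' deposited table also sets single stressed pups against single control pups of the same number, 1 library against 1, which compares libraries and not conditions. For male 3, where 2.62% of 35275 genes passed, it listed Cldn8 at 4.72 (adjusted p = 4.4165e-18) and Cldn15 at -2.09 (adjusted p = 0.000144). In the authors' deposited table no other member passed in this or in the other 5 such pairs.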

How the data were processed

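Ileal RNA of 12 pups was analysed in 4 groups of 3. The deposited count table holds raw counts of reads per gene, and the deposited FPKM table holds FPKM for the same genes. All 240813 nonzero counts matched FPKM within 1e-06. The authors' deposited comparison table holds log2 fold changes and p-values per the file headers, and 36 of its columns of per-sample values were not used. The submitters' processing notes list the builds GRCm38 and mm10 and the tools STAR 2.5, TopHat, edgeR 3.16.5, HTSeq 0.6.1 and DESeq2, without roles. Rows without a gene numbered 0.

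Counts were tested with edgeR 4.0.16 in R 4.3.3 by its quasi-likelihood F test, after TMM scaling and filterByExpr. A fit of 4 groups with 8 residual degrees of freedom gave the effect in males, in females, their difference, and males against females, over 16102 genes. Littermates' counts were summed for the test between 3 stressed and 3 control litters. Benjamini-Hochberg adjustment ran over all genes, and an adjusted p below 0.05 was called. CPM used TMM factors. With 3 against 3 an exact test could not go below 0.1. Alternatives were DESeq2 1.42.0 (Wald test), median-ratio factors, scaling to 15 epithelial genes, other filters, limma 3.58.1 on log2(FPKM + 1) and log2(FPKM + 0.1), a replicate block, single sexes, and libraries left out. The fits were tested on simulated data with known changes and no litter effect. Of 100 genes changed 2-fold, 47 were recovered in males, 49 in females and 8 for the difference of the effects. Between the sexes 88 were recovered, and between litters 77. Of 100 genes changed 4-fold, 86 to 100 were recovered.

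By the labels littermates share a dam, so they pair where males are set against females and where the effects are compared. Deviations of littermates correlated at -0.362 to 0.545 across genes. A dam number marks no pair across treatments, where the range was -0.329 to 0.306.

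Members and gene lists were chosen with earlier results of these data known. All 9 members are named. Of the other junction lists the 2 genes of smallest unadjusted p are named in males and, for claudins and membrane proteins, between litters. For likeness the 3 genes of highest r are named, among those with a mean of at least 1 CPM and without clone names. Cell type lists are given where both pups of control dam 3 or control male 1 stood at an end of the range, and beside genes they touch. Promoters are from RefSeq (GRCm38.p6) and coordinates from the count table, whose identifiers were compared with GENCODE M21.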

Additional observations from a re-analysis of the deposited data

Results flagged for a closer look

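Each member was examined in the 6 control pups and in the 6 stressed pups, 18 groups in all, for a library whose gap to its nearest neighbour in log2 CPM exceeded 0.625 of the group's range (Dixon's 95% limit). Chance passes this limit in about 1 in 20 groups, and 2 of 18 did. Cldn8 in control male 3, at 3.96566 CPM, lay far below the other 5 control pups, which lay between 79.9 and 174 CPM. Cldn2 in stressed male 3, at 381.186 CPM, lay below the other 5 stressed pups, which lay between 458 and 510 CPM, although control male 1 was lower still at 352 CPM.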

How the results depend on the processing

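No member was called in any of 954 alternative values (9 members in 5 comparisons), whose smallest adjusted p was 0.11, for Cldn7 in males without stressed male 2. An unadjusted p below 0.05 occurred in 9 of them, for Cldn7, Cldn15, Cldn2 and Cldn23. In the fits that gave these values, 7.06% to 20.7% of all genes tested had such a p. The lowest share was that of DESeq2 in males, and the highest that of males without stressed male 2. Of the 45 fold changes 38 changed sign in at least 1 alternative, all from values that were not called. Males against females gave 8 genes past the threshold, 18 in DESeq2, 5 without the 3 male libraries rich in Yam1 and 8 to 1384 with 1 library left out, the last without stressed male 2. Stressed against control males gave 0, and 0 to 1 with 1 library left out, again the last without stressed male 2. With the litter as a replicate block (paired littermates), males against females gave 6 genes. No member was called there or for the difference of the effects. Within males, within females and between litters the replicate block joined stressed and control dams of the same number, which marks no pair. In those fits no member was called either. Every member count was at least 281 except the 61 counts of Cldn8 in control male 3, and the SE of the log2 fold change in males ran from 0.11 for Cldn12 to 0.78 for Cldn8.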
